A study of Bos taurus with 92 samples.

Results

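The genes described here encode the extracellular matrix, the integrins that anchor cells to it, and the proteases and protease inhibitors that remodel it. Members were all probes whose single gene symbol named a collagen, laminin, fibulin, fibrillin, SPARC or lysyl oxidase family gene, an integrin subunit, a matrix metalloproteinase (MMP), an ADAM or ADAMTS protease, a TIMP inhibitor, or FN1, LUM, BGN or POSTN. The prefixes also took in ITGB1BP1, which encodes a cytoplasmic partner of integrin β1 and no integrin. There were 39 such genes on 54 probes, of 4452 named genes and 8208 probes in all, and each of the 39 was among the 4398 genes that could be tested. COL1A1, LUM, BGN, POSTN, LOX, FBN1 and TIMP2 were not analysed here.

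Transcript levels had been measured in 46 samples on a 2-colour cDNA array. The samples were 15 single blastocysts from nuclear transfer (NT, in which the nucleus of a somatic cell is placed in an oocyte), 15 fertilised in vitro (IVF), 14 from artificial insemination (AI), and 2 samples of the donor cells. Each sample was hybridised against a common reference RNA on 2 arrays with the dyes swapped, after 3 rounds of RNA amplification for the sample and 2 for the reference. The labels begin with 2_ for 8 NT embryos, with 3_ for 7 NT embryos and with H for 3 AI embryos, without an explanation. They name neither the tissue of the donor cells nor a hybridisation batch, and a batch that went with a kind of sample could not be told apart from it. Nothing in the labels says which embryos shared parents or a culture, so the p values measure the spread between these samples. The fit shared the spread of a gene over all 46 samples. The p values against the 2 donor samples therefore rest mostly on the spread among embryos and hardly on that between donor samples.

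The extracellular matrix is a mesh of collagens, laminins and glycoproteins that cells secrete and hold through integrins. Fibrillar collagens and their partners are typical products of fibroblasts, whereas basement membranes, built from laminins and type IV collagen, underlie epithelia. In a blastocyst the outer epithelium is the trophectoderm, and in the mouse the extraembryonic endoderm is a major source of basement membrane proteins and of SPARC.

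All values are log2 ratios of a sample to the reference, with each array centred on its own median, so levels of different genes cannot be set against each other. No label states which dye is on top of the ratio, and reading it as Cy5 over Cy3 is likely but not settled. Before any change of sign, the dye-swapped arrays of each sample had a negative correlation. For embryos r lay between -0.743 and -0.565, and for the donor samples it was weaker, at -0.354 and -0.301. Under this reading the trophectoderm list, which holds no member, was higher in embryos than in donor cells for 10 (NT), 12 (AI) and 14 (IVF) of 19 genes and lower for 1. If the ratio ran the other way, every sign would turn. Differences are given with the standard error (SE) of the limma fit over all genes, and a gene is called where the Benjamini-Hochberg adjusted p lies below 0.05.

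COL3A1, COL1A2, FBLN5, MMP2 and SPARC were far lower in every embryo than in the donor cells, and FBLN2 was higher in every embryo. In NT embryos 14 of 39 members were lower and 1 was higher than in donor cells, beside 35.4% of all genes called (15.4% lower and 19.9% higher). In AI embryos 15 were lower and 1 higher, beside 37% of all genes (16.5% lower and 20.5% higher). In IVF embryos 18 were lower and 1 higher, beside 34.3% of all genes (16% lower and 18.3% higher). Without either donor sample the IVF count was 14 to 15 in place of 19, and COL12A1 and FN1 were lost in both cases. The median difference of the members was -0.38 for NT, -0.58 for AI and -0.55 for IVF embryos, beside 0.03, 0.01 and 0.02 for all genes. These 3 comparisons share the same 2 donor samples, and in whole embryos fewer cells of a type and less RNA per cell cannot be told apart. For 13 members all 44 embryos lay below both donor samples, as 9.19% of all genes did, and for 1 member all lay above, as 8.71% of all genes did.

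**Figure D1:**
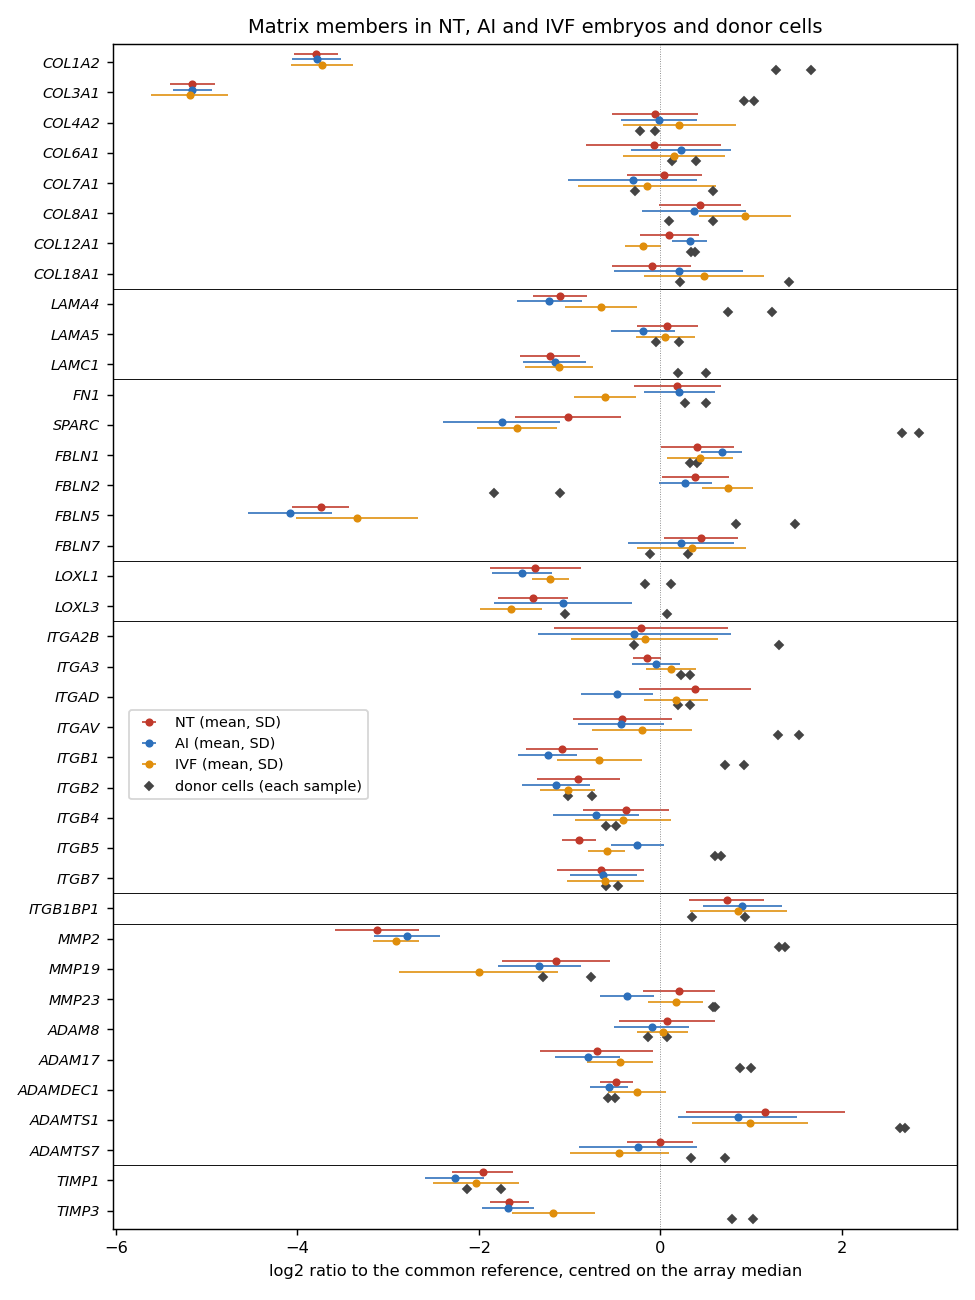
Log2 ratio to the reference for all 39 members (x axis), ordered by role, as mean and SD in NT, AI and IVF embryos and as single points for the 2 donor samples. COL1A2, COL3A1, FBLN5 and MMP2 lie several log2 units left of the donor points in all kinds of embryo, and FBLN2 lies to the right.

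Among the collagens, the 2 fibrillar chains stood apart. COL3A1, the chain of type III collagen found with type I in loose connective tissue, ranged from -5.63 to -4.55 in NT embryos (median -5.16), from -5.60 to -4.89 in AI embryos (median -5.10) and from -6.20 to -4.64 in IVF embryos (median -5.16), against 0.93 and 1.04 in donor cells. No embryo came near the donor samples, and the 3 kinds of embryo overlapped. IVF embryos were the most spread (SD 0.42, against 0.25 in NT and 0.21 in AI embryos). Of 15 IVF embryos, 5 lay above every AI embryo and 2 below. COL3A1 differed by -6.14 ± 0.24 in NT, -6.14 ± 0.24 in AI and -6.17 ± 0.24 in IVF embryos from donor cells (limma, adjusted p = 9.89e-26, 1.18e-25 and 8.03e-26), while NT and AI embryos differed by 0.00 with a 95% interval of -0.24 to 0.24.

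COL1A2, the α2 chain of type I collagen, the main fibre of skin and bone, ranged from -4.05 to -3.39 in NT embryos (median -3.88), from -4.35 to -3.33 in AI embryos (median -3.80) and from -4.32 to -3.06 in IVF embryos (median -3.80), against 1.27 and 1.66 in donor cells. It was lower than in donor cells by -5.26 ± 0.23, -5.25 ± 0.23 and -5.20 ± 0.23 in NT, AI and IVF embryos. Its 2 probes agreed on this fall but moved opposite ways between IVF and AI embryos, by -0.54 ± 0.16 (adjusted p = 0.0095) and 0.65 ± 0.10 (adjusted p = 1.7e-06), so that the gene's mean of 0.06 hides a disagreement between probes. The other 6 collagens, those of basement membranes, microfibrils and fibril surfaces, had group means between -0.30 and 0.94 in embryos, and 3 of them differed between kinds of embryo, as given further on.

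**Figure D2:**
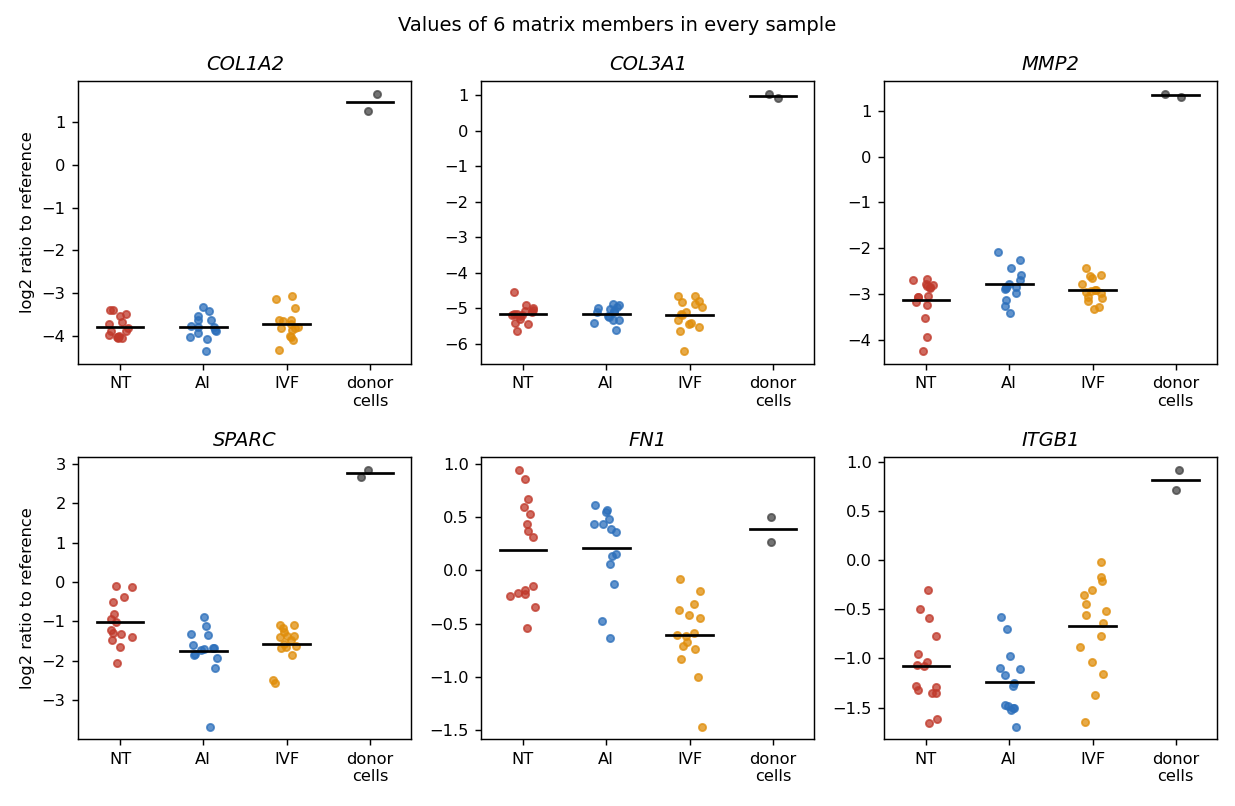
Log2 ratio to the reference (y axis) of 6 members in every NT, AI and IVF embryo and both donor samples; each point is a sample and the bar is the mean. COL1A2, COL3A1 and MMP2 show no overlap between embryos and donor cells, SPARC is higher in NT embryos without reaching the donor samples, and FN1 is lower in IVF embryos.

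The laminins, the cross-shaped trimers of basement membranes, were lower too for 2 of 3 chains. LAMA4, the α4 chain of vessels and muscle, ranged from -1.54 to -0.56 in NT embryos (median -1.20), from -2.17 to -0.78 in AI embryos (median -1.16) and from -1.42 to 0.03 in IVF embryos (median -0.64), against 0.75 and 1.23 in donor cells. LAMC1, the γ1 chain shared by most laminins, lay at -1.22 ± 0.33, -1.17 ± 0.35 and -1.11 ± 0.38 (SD) in NT, AI and IVF embryos, against 0.20 and 0.51 in donor cells. Only 1 of its 2 probes carried the difference: this probe was lower in NT embryos than in donor cells by -3.25 ± 0.43 and the other differed by 0.11 ± 0.20. In NT, AI and IVF embryos the first of these probes had means of -2.02, -1.93 and -2.12 (SD 0.53, 0.58 and 0.64). The other had -0.42, -0.40 and -0.10 (SD 0.21, 0.30 and 0.22), so IVF embryos were the lowest kind on the first and the highest on the other. LAMA5, the α5 chain of epithelial basement membranes, had 4 probes and was called in no comparison. Its probes did not share a direction between AI and IVF embryos. Their means were -0.45 and -0.55, 0.29 and -0.05, -0.10 and 0.12, and -0.52 and 0.68 (AI and IVF, SD 0.23 to 1.21).

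FBLN5, a fibulin that helps to assemble elastic fibres, lay far below the donor samples. It ranged from -4.11 to -3.12 in NT embryos (median -3.77), from -4.88 to -3.19 in AI embryos (median -4.08) and from -3.90 to -1.28 in IVF embryos (median -3.56), against 0.83 and 1.48 in donor cells. FBLN2, a fibulin of basement membranes and elastic fibres, was the 1 member higher in embryos: -0.55 to 0.96 in NT (median 0.34), -0.28 to 0.78 in AI (median 0.23) and -0.06 to 1.04 in IVF embryos (median 0.81), against -1.84 and -1.10 in donor cells. Every embryo exceeded both donor samples, with differences of 1.86 ± 0.25, 1.75 ± 0.25 and 2.21 ± 0.25 in NT, AI and IVF embryos.

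LOXL1, an oxidase that cross-links elastin and collagen, was lower in NT embryos by -1.35 ± 0.28. Of the integrin subunits, ITGAV (the α subunit of vitronectin receptors), ITGB1 (the β subunit of most collagen, laminin and fibronectin receptors) and ITGB5 (a partner of ITGAV) were lower in NT embryos, by -1.83 ± 0.38, -1.89 ± 0.30 and -1.53 ± 0.19. ITGAV had -1.29 to 0.44 in NT embryos (median -0.43), -1.05 to 0.47 in AI embryos (median -0.53) and -1.49 to 0.45 in IVF embryos (median -0.09), against 1.30 and 1.53 in donor cells. The remaining 6 integrin subunits, among them the leukocyte subunits ITGAD, ITGB2 and ITGB7 and the hemidesmosome subunit ITGB4, were called against donor cells in none of the 3 comparisons.

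MMP2, a gelatinase that cuts denatured and basement membrane collagen, ranged from -4.24 to -2.67 in NT embryos (median -3.05), from -3.41 to -2.08 in AI embryos (median -2.85) and from -3.32 to -2.44 in IVF embryos (median -2.93), against 1.31 and 1.37 in donor cells. All embryos were well below both donor samples, by -4.46 ± 0.28, -4.13 ± 0.28 and -4.25 ± 0.28 in NT, AI and IVF embryos. ADAM17, a sheddase of membrane-bound growth factors and cytokines, and ADAMTS1, a protease that cuts versican, were lower in NT embryos by -1.64 ± 0.34 and -1.51 ± 0.53. The values of ADAMTS1 still overlapped, with -0.50 to 2.72 in NT embryos against 2.64 and 2.70 in donor cells. A few members were called against donor cells for 1 kind of embryo only. They were MMP23 in AI embryos (-0.96 ± 0.26) and, in IVF embryos, FN1, COL12A1 (-0.55 ± 0.20), LOXL3 (-1.15 ± 0.39) and ADAMTS7, a protease of cartilage and vessel wall (-0.98 ± 0.39), and whether the kinds differ in these distances was tested only through the embryo comparisons given further on.

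The 2 inhibitors differed. TIMP3, an inhibitor bound to the matrix, ranged from -2.02 to -1.42 in NT embryos (median -1.69), up to -1.02 in AI embryos (median -1.78) and from -1.85 to -0.02 in IVF embryos (median -1.21), against 0.79 and 1.02 in donor cells. All embryos lay below both donor samples, and NT embryos differed from donor cells by -2.56 ± 0.26. TIMP1, a soluble inhibitor, was called in no comparison. It lay between -2.45 and -1.28 in NT embryos, -2.81 and -1.78 in AI embryos and -2.62 and -0.87 in IVF embryos, against -2.13 and -1.76 in donor cells. The 2 TIMP3 probes gave unlike pictures. One lay at -5.30 ± 0.42 in NT embryos relative to donor cells and did not differ detectably between IVF and AI embryos (0.10 ± 0.21). The other lay at 0.17 ± 0.22 relative to donor cells and was higher in IVF than in AI embryos by 0.89 ± 0.11 (limma, adjusted p = 4.9e-08).

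**Figure D3:**
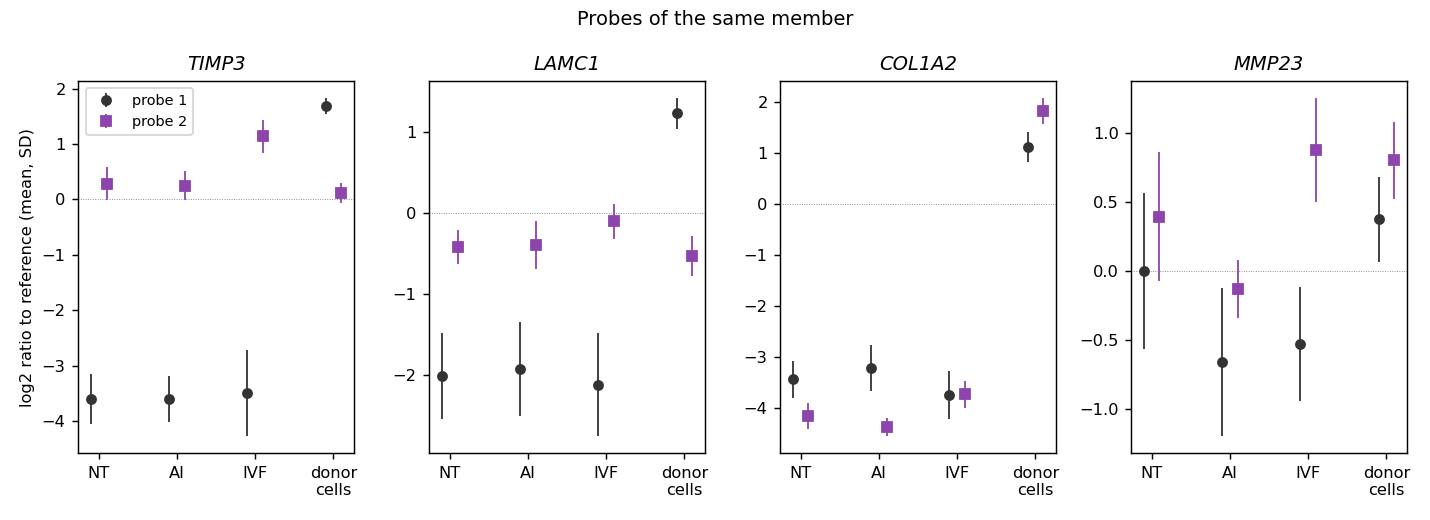
Log2 ratio to the reference (y axis, mean and SD) of the 2 probes of TIMP3, LAMC1, COL1A2 and MMP23 in NT, AI and IVF embryos and donor cells. For TIMP3 and LAMC1 only probe 1 is high in donor cells, and for MMP23 the probes part in IVF embryos.

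Whether a donor matrix gene stays high in NT embryos was asked of the 14 members that were higher in donor cells than in both AI and IVF embryos, as 565 of all genes (12.8%) were. A gene was taken to stay high where it was also higher in NT than in AI and in IVF embryos. Of the 14 members 1 did so, SPARC, and of all genes 13 did so, which is 0.296% of all and 2.3% of the 565. Both embryo comparisons share the NT embryos. The counts rest on the reading of the ratio: with every sign turned, 1 member (FBLN2) would be higher in donor cells, it would not stay high, and 647 genes would be higher in donor cells, of which 13 other genes would stay high.

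SPARC, a secreted glycoprotein that binds collagen and loosens cell contact with the matrix, ranged from -2.05 to -0.10 in NT embryos (median -1.12), from -3.66 to -0.89 in AI embryos (median -1.68) and from -2.56 to -1.09 in IVF embryos (median -1.48), against 2.66 and 2.85 in donor cells. NT embryos thus lay somewhat above the other embryos, with broad overlap, and far below the donor cells. The mean was -1.02 ± 0.58 in 14 NT embryos, -1.75 ± 0.65 in 14 AI embryos and -1.58 ± 0.44 in 15 IVF embryos (SD), and 5 NT embryos exceeded every AI embryo while 7 exceeded every IVF embryo. SPARC was higher in NT than in AI embryos by 0.73 ± 0.20 (1.66-fold, limma, adjusted p = 0.0184) and than in IVF embryos by 0.56 ± 0.20 (1.47-fold, adjusted p = 0.0358), and it was 13.7-fold lower in NT embryos than in donor cells.

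The difference from IVF embryos was near the threshold. The NT embryo 2_4 had a SPARC value on 1 array only, with the sample in Cy3, at -2.23. It was left out, as a value had to be measured on both arrays. SPARC read lower in Cy3 than in Cy5 in every sample with both arrays. The value of -2.23 thus cannot be set beside means over both arrays, as keeping values on 1 array does. NT embryos ran from -2.41 to -0.35 in Cy3, and only 2_3 (-2.41) and 2_2 (-2.32) were lower there than 2_4. The embryo left out was therefore a low one among NT embryos. With values on 1 array kept, the difference from IVF embryos was 0.48 (adjusted p = 0.0850) and SPARC no longer met the rule, and the same held for the arrays with the sample in Cy3 alone (0.45, adjusted p = 0.116). Leaving out each embryo in turn ended the call against IVF embryos for 7 of 30 embryos (IVF 1, 2 and 10, NT 2_7, 2_8, 3_5 and 3_9), with differences of 0.49 to 0.54 there. Against AI embryos leaving out any single embryo kept the call, and the difference was 0.58 without embryo H1, the lowest of all at -3.66. Only NT embryos labelled 2_ gave 0.61 (adjusted p = 0.173) and only those labelled 3_ gave 0.85 (adjusted p = 0.0320) against AI embryos, and without all 3 AI embryos labelled H the difference was 0.52 (adjusted p = 0.0707).

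Markers of other cell types were measured beside SPARC. Of 10 fibroblast markers that are no members, the calcium-binding protein ANXA1 was higher in NT than in AI embryos by 1.04 and the caveolar protein CAV1 was lower by -0.88. Against IVF embryos 2 of the 10 were higher, ANXA1 by 0.60 and the surface protein THY1 by 0.31, and the lectin LGALS1 was lower by -0.55. The mean of these 10 markers ran from -1.62 to -1.09 in NT, -1.56 to -1.15 in AI and -1.63 to -1.03 in IVF embryos, against 0.42 and 0.53 in donor cells. None of the 5 measured markers of primitive endoderm was called by limma between NT and AI or NT and IVF embryos, though 3 and 2 of them had an unadjusted p under 0.05. Their mean ran from 0.01 to 0.97 in NT, -0.10 to 1.26 in AI and 0.08 to 0.58 in IVF embryos, against 0.10 and 0.19 in donor cells. Of the 19 trophectoderm genes, 4 were lower in NT embryos against AI embryos, and 6 were lower and 1 higher against IVF embryos, beside 4.41% of all genes lower against AI, and 10.1% lower and 14.1% higher against IVF embryos. The part of these markers in the SPARC difference was not tested.

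**Figure D4:**
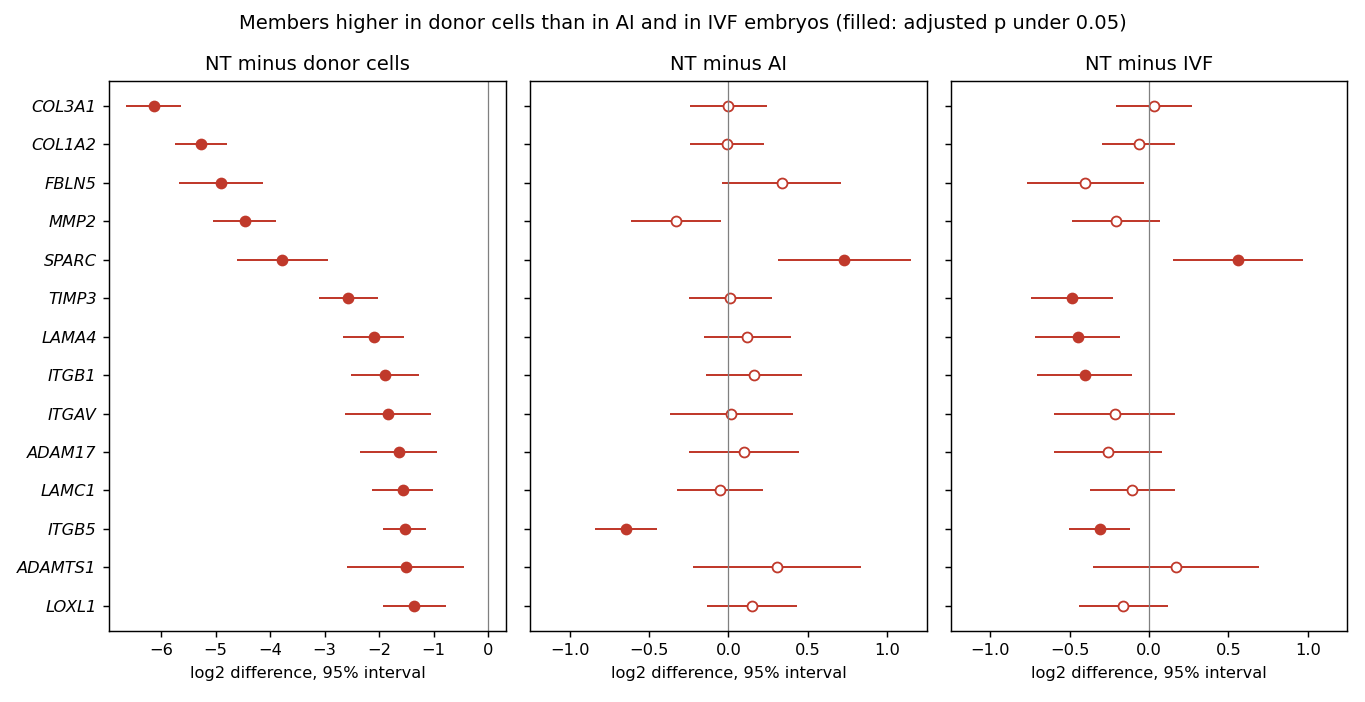
Log2 differences with 95% intervals (x axes) for the 14 members higher in donor cells than in AI and in IVF embryos, for NT minus donor cells, NT minus AI and NT minus IVF; filled points have an adjusted p under 0.05. SPARC is the 1 member to the right of 0 in both embryo comparisons with filled points, and ITGB5 lies to the left in both, although its NT minus IVF value turned to 0.07 without centring.

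NT and AI embryos differed in few members. Of 39 members 3 were higher and 1 lower in NT embryos, which is 10.3% beside 7.96% of all genes (3.55% higher and 4.41% lower), and the median difference was 0.08 for members and 0.02 for all genes. A share this close to that of all genes is not a result about the matrix members. The largest difference was that of ITGAD, a leukocyte integrin α subunit, with -0.40 to 1.52 in NT embryos (median 0.13) and -1.17 to -0.01 in AI embryos (median -0.38). All 15 NT embryos lay above the AI mean, and the difference was 0.86 ± 0.17 (limma, adjusted p = 0.000615). Both ITGAD probes gave the same direction, 1.04 and 0.81. They had values in 9 and 13 of 14 AI embryos and in 15 and 14 NT embryos. The gene value of some embryos thus rests on 1 probe. The 2 arrays of a sample disagreed on ITGAD at least as much as embryos of a kind did among themselves (array error at 145% of the variance among embryos, against a median of 42.7% for all genes).

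ITGB5 was lower in NT than in AI embryos, opposite to SPARC. It ranged from -1.26 to -0.50 in NT embryos (median -0.92) and from -0.89 to 0.22 in AI embryos (median -0.21), against 0.60 and 0.67 in donor cells. All 15 NT embryos lay below the AI mean and 9 lay below every AI embryo. The difference was -0.65 ± 0.09 (limma, adjusted p = 7.26e-06), and NT was also lower than IVF, whose values ran from -0.91 to -0.09, by -0.31 ± 0.09 (adjusted p = 0.00962), though without centring the arrays these were -0.22 and 0.07 and neither was called. On Cy3 arrays alone they were -0.36 and -0.24 (adjusted p = 0.0755 and 0.152) and on Cy5 arrays alone -0.93 and -0.38, both called. With only NT embryos labelled 3_ the difference from IVF embryos was -0.21 and was not called. MMP23, a membrane-bound metalloproteinase, averaged 0.21 ± 0.40 in NT embryos and -0.37 ± 0.30 in AI embryos (SD) and was higher in NT by 0.58 ± 0.13 (adjusted p = 0.00230). It was not called on Cy3 arrays alone or with only NT embryos labelled 3_.

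NT and IVF embryos differed in 12 of 39 members, 4 higher and 8 lower in NT, which is 30.8% beside 24.1% of all genes (14.1% higher and 10.1% lower). The share called was again near that of all genes and is not a result about the matrix members. Without centring the arrays, the median of all genes moved by 0.38 for NT minus IVF and by 0.44 for NT minus AI. The members called were then 10 higher and 0 lower against IVF, and 21 higher and 0 lower against AI, so that the balance of higher and lower rests on the centring. FN1, which encodes fibronectin, the glycoprotein that links integrins to collagen, ranged from -0.54 to 0.95 in NT embryos (median 0.31), from -0.64 to 0.61 in AI embryos (median 0.38) and from -1.47 to -0.08 in IVF embryos (median -0.61), against 0.27 and 0.51 in donor cells. IVF embryos were the low kind, and all 15 lay below the AI mean. FN1 was higher in NT than in IVF embryos by 0.79 ± 0.15 (1.73-fold, limma, adjusted p = 6.93e-05), and both probes gave it (0.84 and 0.75). It was called under each of the 13 alternatives tried for this comparison. Against donor cells FN1 was lower in IVF embryos by -0.99 ± 0.30, while NT and AI embryos differed from donor cells by -0.20 ± 0.30 and -0.18 ± 0.31 (adjusted p = 0.676 and 0.715).

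The other members higher in NT than in IVF embryos were MMP19, a secreted metalloproteinase (0.85 ± 0.24), and COL12A1, a collagen that coats fibrils (0.29 ± 0.10). MMP19 had a value in 13 IVF embryos. Both calls were lost on Cy5 arrays alone and with only NT embryos labelled 2_, and that of COL12A1 also on Cy3 arrays alone. Of the 3 COL12A1 probes 1 was called on its own (0.62 ± 0.14), and the others gave 0.36 ± 0.19 and -0.11 ± 0.12. Lower in NT than in IVF embryos, beside ITGB5, were COL18A1, the basement membrane collagen that yields endostatin (-0.58 ± 0.22), COL8A1, a network collagen of vessel walls (-0.50 ± 0.18), LAMA4 (-0.45 ± 0.13), FBLN2 (-0.35 ± 0.12), ITGB1 (-0.40 ± 0.15), ITGA3, a laminin receptor subunit (-0.27 ± 0.09) and TIMP3 (-0.49 ± 0.13). The TIMP3 difference came from 1 probe (-0.86 ± 0.11, the other -0.11 ± 0.20), and the call was lost with 1 probe per gene and with spots differing by over 1 left out (-0.19). For FBLN2 and ITGA3 the sign turned without centring, to 0.02 and 0.11. Of these 8 lower calls COL18A1, COL8A1 and ITGB1 were near the threshold, since leaving out each embryo in turn ended them for 19, 14 and 14 of 30 embryos. COL18A1 averages 2 probes of unlike spread. Probe 1, with values in 11 NT and 14 IVF embryos, had means of -0.12 and 0.27 (SD 0.96 and 1.33). Probe 2 had -0.02 and 0.69 (SD 0.45 and 0.31) in NT and IVF embryos.

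IVF and AI embryos differed in 14 of 39 members, 9 higher and 5 lower in IVF, which is 35.9% beside 29.1% of all genes (13.2% higher and 15.9% lower). Here too the share called was near that of all genes and is not a result about the matrix members. ITGB1 was higher in IVF embryos, with -1.65 to -0.02 (median -0.56) against -1.69 to -0.58 in AI embryos (median -1.27), and 13 of 15 IVF embryos lay above the AI mean. It was higher by 0.57 ± 0.15 (limma, adjusted p = 0.00300). LAMA4 and COL8A1 were higher by 0.57 ± 0.13 and 0.56 ± 0.18, FBLN5 by 0.74 ± 0.18, FBLN2 by 0.47 ± 0.12, TIMP3 by 0.50 ± 0.13 (on 1 of its 2 probes), ITGAD by 0.65 ± 0.17, MMP23 by 0.54 ± 0.13 and ADAMDEC1, a secreted ADAM-like protease, by 0.30 ± 0.10. The FBLN5 call was lost under quantile normalisation (0.48, adjusted p = 0.0654). The 2 MMP23 probes did not share their rise: one gave 0.13 ± 0.19 and the other 1.00 ± 0.14, and between NT and IVF embryos they were called in opposite directions, at 0.53 ± 0.18 and -0.48 ± 0.14.

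FN1 was lower in IVF than in AI embryos by -0.82 ± 0.15 (limma, adjusted p = 4.31e-05). COL12A1 was lower by -0.51 ± 0.10, with all 15 IVF embryos below the AI mean, although 1 of its 3 probes gave 0.04 ± 0.12 and the others -0.73 ± 0.14 and -0.85 ± 0.19. Also lower were ITGB5 by -0.33 ± 0.09, MMP19 by -0.67 ± 0.26 and LOXL3, an oxidase of the lysyl oxidase family, by -0.57 ± 0.19. MMP19 was near the threshold, and the call was lost when any of 12 embryos was left out, and for LOXL3 when AI embryo H5 was left out. Both comparisons with IVF share the IVF embryos, so their values stand side by side and are not counted as separate support.

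**Figure D5:**
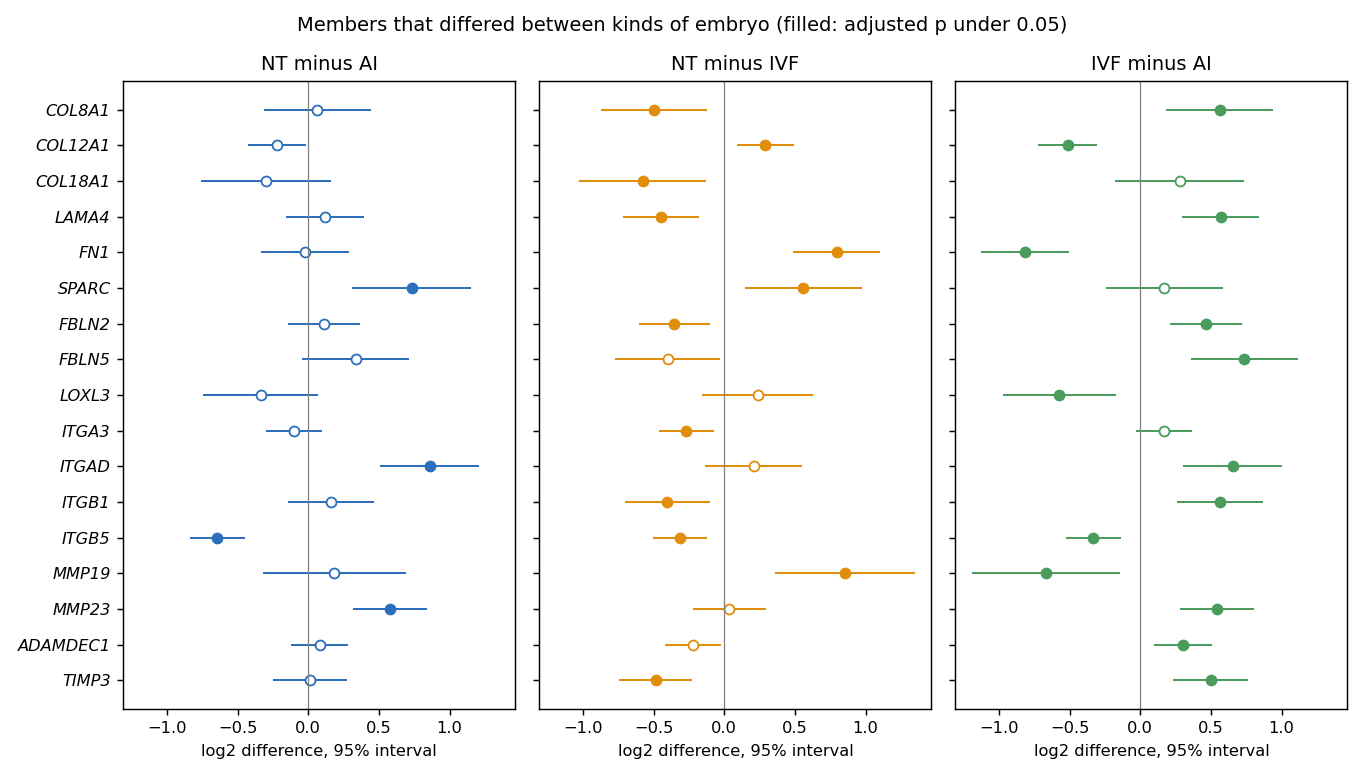
Log2 differences with 95% intervals (x axes) for the 17 members called in at least 1 comparison between kinds of embryo, for NT minus AI, NT minus IVF and IVF minus AI; filled points have an adjusted p under 0.05. FN1 is lower in IVF than in NT and in AI embryos, and LAMA4 and TIMP3 are higher.

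NT embryos with labels beginning 2_ and 3_ were compared to see whether the NT values come from 2 unlike sets. No member and no gene was called (0%, limma), and 2 members reached an unadjusted p under 0.05: MMP2 at 0.45 and TIMP1 at -0.40 (labels 2_ minus 3_). Called in no comparison were 13 members: COL4A2, COL6A1, COL7A1, LAMA5, FBLN1, FBLN7, ITGA2B, ITGB2, ITGB4, ITGB7, ITGB1BP1, ADAM8 and TIMP1. Among them, COL4A2, COL6A1, COL7A1, LAMA5, FBLN1, FBLN7, ITGB1BP1 and ADAM8 had embryo group means between -0.30 and 0.90, and ITGA2B, a platelet subunit, was measured in 11 NT, 9 AI and 10 IVF embryos only. ITGB2, ITGB4 and ITGB7 had means between -1.15 and -0.38 in embryos, against -0.88, -0.54 and -0.54 in donor cells. For ITGB4 this averages 2 probes on opposite sides of the donor cells. Probe 1 had means of 0.18, -0.29 and 0.29 in NT, AI and IVF embryos against -0.72 in donor cells. Probe 2 had -0.93, -0.99 and -1.02 against -0.37. A missed threshold does not show that a member was alike in the groups compared.

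Partner chains were asked whether they vary together among embryos of a kind. Of 23 pairs listed, both members were measured in 7. These were proteins known to bind each other or share a complex or fibre, except LAMA4 with LAMA5. LAMA4 and LAMA5 are both laminin α chains and not partners, and were listed because all laminin α and γ members were paired. Over 44 embryos, after subtracting each kind's mean, ITGB1 and ITGA3, which form a laminin receptor, correlated with Pearson's r = 0.37 and Spearman's rho = 0.24 (permutation p = 0.0154 and 0.134, adjusted over 7 pairs 0.108 and 0.283). COL1A2 and COL3A1 correlated with r = 0.30 and rho = 0.26 (permutation p = 0.0776 and 0.106, adjusted 0.181 and 0.283). Without the 2 embryos farthest from the median of the first gene, r was 0.29 for each pair. ITGB1 with ITGAV gave r = 0.30 and LAMA4 with LAMA5 0.23, ITGAV with ITGB5 gave -0.24, and LAMA4 with LAMC1 and LAMA5 with LAMC1 each gave -0.01. No pair passed the threshold after adjustment.

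Matrix genes outside the family rule were measured beside it. Against donor cells, where 35.4% of all genes were called for NT embryos, 7 of 15 measured glycoproteins and proteoglycans were lower and 2 higher in NT embryos, led by the collagen-binding proteoglycan DCN at -6.45, the bone and tissue glycoprotein SPP1 at -3.33 and the matricellular protein CCN2 at -2.71. THBS1, thrombospondin 1, was higher in NT than in AI embryos by 0.36 and than in IVF embryos by 0.46, and SDC4, a syndecan, was lower in NT than in AI embryos by -0.77. CCN2 and DCN were lower in NT than in IVF embryos, by -0.67 and -0.42. Of 8 proteases and inhibitors of other families, 3 were lower and 1 higher in NT embryos than in donor cells, with the collagen-cutting cathepsin CTSK at -6.75. PLAU, the urokinase, was lower in NT than in IVF embryos by -1.68. Of 5 genes of collagen folding and processing none was called by limma between NT embryos and donor cells, and 1 had an unadjusted p under 0.05. Of 8 adhesion partners 2 were lower and 1 higher, with the hyaluronan receptor CD44, also on the fibroblast list, at -2.65. The share of 3 in 8 adhesion partners is near that of all genes.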

How the data were processed

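Per spot, the authors deposited a log2 ratio between both dye channels; scanner software, background correction and normalisation are not given in the sources used here, and the deposited ratios were not centred (array medians -2.14 to 0.862). Fill values and empty cells (4.39%) were set to missing. Each array was centred on its median, the sign was turned on arrays that held the sample in Cy3, duplicate spots, then probes of a symbol, then the 2 arrays of a sample were averaged, and a value had to be present on both arrays. A probe was used where 50% or more of the embryos of each kind and both donor samples had a value. This left 7992 probes, and those with a single gene symbol gave the 4398 genes tested. All 46 samples entered 1 model of group means in limma 3.58.1 (R 4.3.3), with eBayes, 2-sided tests and Benjamini-Hochberg adjustment over all genes. The fit was tested on simulated data. Correlations used 1e+05 permutations within kinds of embryo (Python 3.11.15). No intensities were used, so whether strongly negative values lie at background is not known, and precision is limited by how many arrays there are.

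The members and lists were chosen with earlier results of these data known. Members named are those called between embryos or between labels 2_ and 3_, the 6 largest rises and falls against donor cells, and 15 chosen by name, of which 8 were measured. Of other lists, the 3 genes of smallest p in each comparison could be named. The remaining members appear only to account for all 39. Gene names came from the platform annotation. 2 symbols of the family are not reported here. Embryo numbers shared by AI and IVF embryos were checked for pairing (7 numbers, correlations of deviations -0.06 to 0.09, 0 over 0.1). The samples were not treated as pairs, although correlations this low cannot exclude a shared batch.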

Additional observations from a re-analysis of the deposited data

Results flagged for a closer look

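In the 2 sets of NT embryos by label, 78 groups of member values were tested for 1 value far from the rest, and 6 stood out, where chance gives about 1 in 20. ADAM8, a membrane protease, was 1.16 in NT embryo 2_9, beside -0.44 to 0.16 in the other embryos labelled 2_. In the embryos labelled 3_, COL6A1 was -1.12 in embryo 3_3, beside 0.20 to 0.47 in the others, and ITGB1 was -0.59 in the same embryo, beside -1.36 to -1.08. FBLN5 was -3.15 in embryo 3_9 (others -4.02 to -3.73), FBLN7 was 1.52 in embryo 3_6 (others 0.11 to 0.71), and ITGB2 was 0.63 in embryo 3_2 (others -1.42 to -0.72).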

How the results depend on the processing

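The number of members called was within 1.5 times the main count under the other settings tried, with these exceptions. For NT minus AI (4 called), values as deposited gave 21, the Cy5 arrays alone 7 and the Cy3 arrays alone 2. For NT minus IVF (12 called), the Cy5 arrays gave 6, the Cy3 arrays 5, NT embryos labelled 2_ alone 4 and those labelled 3_ alone 6. For IVF minus AI (14 called), values as deposited gave 9. Embryo number as a replicate block, over the AI and IVF embryos that share a number, gave 7 members called, against 8 for the same embryos with no replicate block, so the fall in count goes with using fewer embryos. Leaving out each embryo in turn gave 4 for NT minus AI, 8 to 12 for NT minus IVF and 12 to 15 for IVF minus AI. Leaving out either donor sample gave 14 to 15 members called against NT, 15 against AI and 14 to 15 against IVF embryos. Of values that were called in at least 1 of the settings compared, signs turned in these cases: COL1A2 in NT minus AI was 0.41 as deposited, FBLN2, ITGA3 and ITGB5 in NT minus IVF were 0.0227, 0.11 and 0.0660 as deposited, and with 1 probe per gene COL12A1 was -0.11 in NT minus IVF, 0.0408 in IVF minus AI and 0.28 in IVF minus donor cells, and COL1A2 was -0.54 in IVF minus AI. SPARC in IVF minus AI, not called, turned to -0.04 without AI embryos labelled H and to -0.09 for embryos sharing a number. As deposited, all values of an array shift together. The correlations of the listed pairs were then 0.68 (COL1A2 with COL3A1), 0.71 (ITGB1 with ITGA3) and 0.47 (ITGB1 with ITGAV). The laminin pairs gave 0.54 (LAMA4 with LAMA5), 0.49 (LAMA4 with LAMC1) and 0.53 (LAMA5 with LAMC1). ITGAV with ITGB5, not called, gave 0.17. Within single kinds of embryo no pair passed the threshold. Keeping values from 1 array, leaving out single embryos and turning every sign were added after seeing the data. The cause of these changes was not tested. Array error took a median 62.7% of the variance of members among embryos of a kind, against 42.7% for all genes, which limits small differences. It exceeded 100% in ITGA2B (171%), ITGAD (145%), MMP19 (141%), ADAMTS7 (136%), LOXL3 (114%), LAMA5 (111%), MMP2 (107%), ITGA3 (106%), MMP23 (104%) and FBLN7 (102%).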
